A study of Mus musculus with 8 samples.

Results

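The genes described here are 39 members of the cornified envelope and squamous differentiation programme. They were taken from a fixed list of names, each read from the probe with exactly 1 gene symbol in the platform annotation and the highest mean over the tumours, and 39 of 39 were found among 22180 genes with such a probe. The list was drawn up after the values of these tumours had been seen, so the levels of the members are given as a description.

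The samples were 8 primary mammary tumours from transgenic mice of strain FVB, each hybridised as total RNA to 1 Affymetrix array. In 4 tumours, labelled NeuNT/H1074R, the mice carried NeuNT, an activated form of the receptor tyrosine kinase ErbB2, and in addition the p110α mutation that the series title writes as H1047R, p110α being a catalytic subunit of PI3 kinase. In the other 4, labelled NeuNT, NeuNT was the only modification named, and NeuNT is thus shared by both groups. The labels give no age, no promoter for the transgenes and no statement that the tumours came from separate mice, and p-values therefore describe only how these tumours scatter.

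The cornified envelope is a shell of cross-linked protein that replaces the plasma membrane of a keratinocyte at the end of its life. Cells that leave the basal layer of a stratified epithelium first change their keratins and reinforce their desmosomes, then make envelope precursors such as involucrin and the small proline-rich proteins, and in the granular layer make loricrin, filaggrin and the late cornified envelope proteins, which transglutaminases join together. Many of these genes lie side by side in the epidermal differentiation complex. The secretory epithelium of the mammary gland does not form such an envelope, while squamous differentiation is a known variant of mammary tumour histology.

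All values are log2 array signals as deposited, with array medians from 4.81 to 4.87, and signals are compared between tumours for 1 gene at a time. The labelled tissue was borne out by the mean level of luminal markers, of which 10 of 12 listed were measured. This mean lay between 9.12 and 9.73 in NeuNT/H1074R tumours and between 8.99 and 9.997 in NeuNT tumours. The luminal keratin gene Krt19 had 7.51 to 11.52 in NeuNT/H1074R and 5.37 to 10.95 in NeuNT tumours. Foxa1 had 5.53 to 8.53 in NeuNT/H1074R and 4.94 to 11.74 in NeuNT tumours, so these 2 genes of widest range were not high in every tumour. In bulk tumour RNA, fewer cells of a type and less RNA per cell cannot be told apart. Of the 39 members, 38 passed the filter on dim genes, which left out genes with a mean under 4.06. Sprr3 did not pass, and Dsc1, Sprr2h and Lce1f passed only through 1 tumour, since their mean over the other 7 tumours lay under the limit.

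The programme was present to very different degrees in single tumours of both genotypes. NeuNT replicate 4 had the highest value of the 8 tumours for 37 of the 39 members, and it lay at least 1 log2 unit above a member's own median for 35 of them. Among all 16635 genes tested, NeuNT replicate 4 was highest for 12.4% and at least 1 unit above the median for 3.07%. NeuNT/H1074R replicate 1 was the second highest tumour for 23 members and NeuNT/H1074R replicate 3 for 11. At least 1 unit above the median were 14 members in NeuNT/H1074R replicate 1 (1.47% of genes tested), 9 in NeuNT/H1074R replicate 3 (1.5%), 2 in NeuNT replicate 3 (2.05%) and 1 in NeuNT replicate 2 (3.79%). The count was 0 in NeuNT/H1074R replicates 2 and 4 and in NeuNT replicate 1. Within the NeuNT tumours, replicate 4 stood apart upwards by Dixon's criterion for 22 of the 38 tested members and for 1.23% of genes tested. The 22 include Dsc1, Sprr2h and Lce1f, which passed the filter on dim genes only through this tumour. Because the members were chosen on such values, these counts carry no test.

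**Figure D1:**
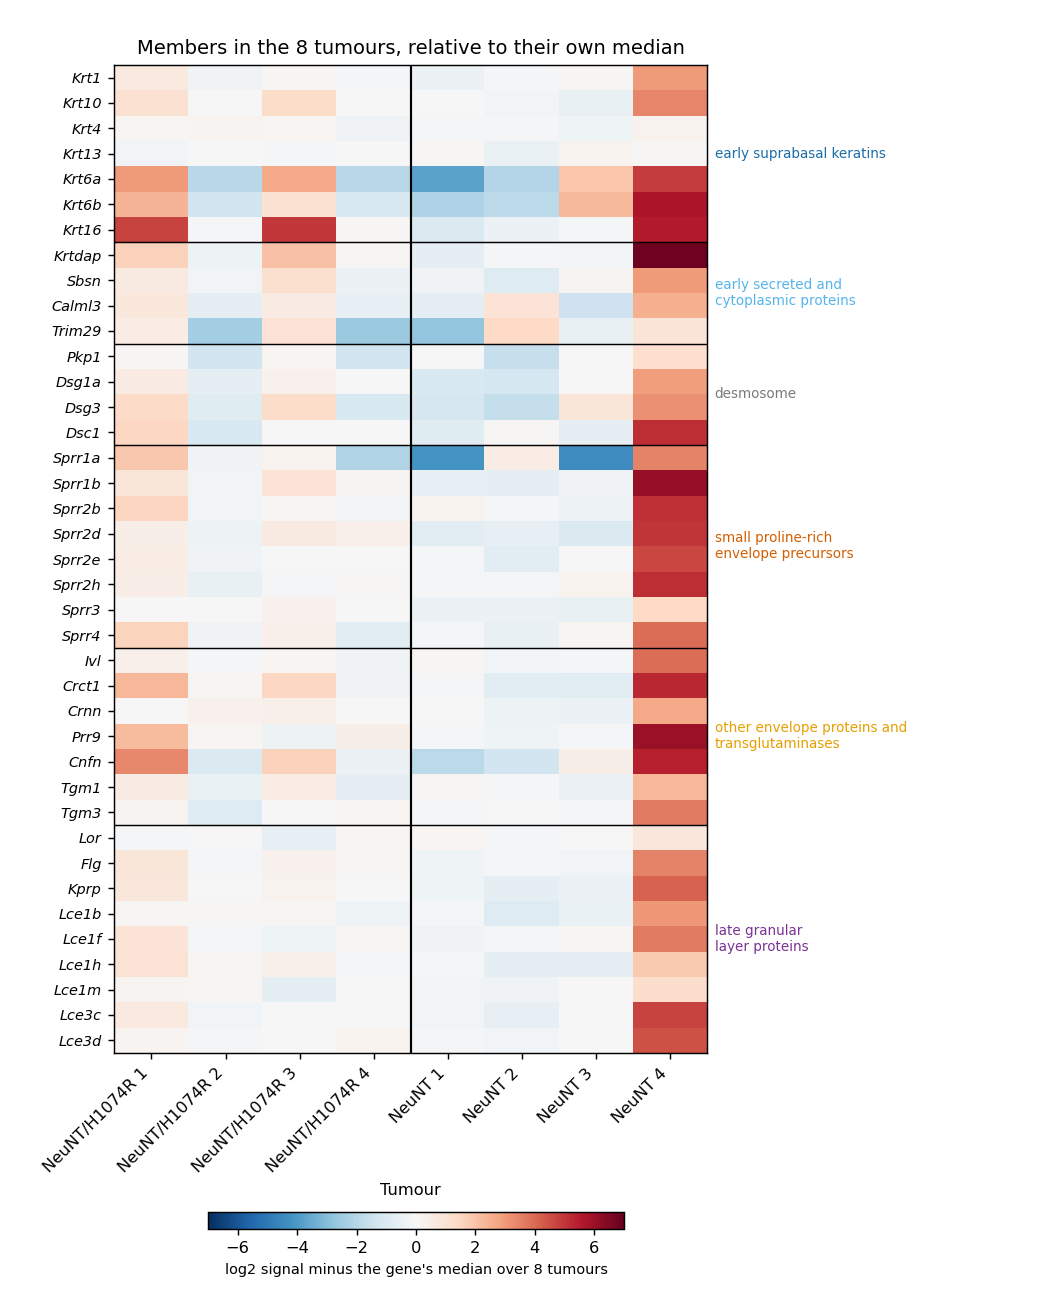
Each row is a member, grouped by role, and each column a tumour, with NeuNT/H1074R on the left of the vertical line and NeuNT on the right; colour gives the log2 signal minus the median of that gene over the 8 tumours. NeuNT 4 is the tumour in which 37 of 39 members were highest, NeuNT/H1074R 1 and 3 show part of the pattern, and Krt4, Krt13 and Lor stay near their medians.

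The keratins of suprabasal and activated keratinocytes split into 3 patterns. Krt6a and Krt6b, type II keratins of wounded and hyperproliferative epithelium, and their partner Krt16 were high in NeuNT/H1074R replicates 1 and 3 as well as in NeuNT replicate 4. Krt1 and Krt10, the pair that marks the spinous layer of the epidermis, were high in NeuNT replicate 4 and had smaller differences elsewhere. Krt4 and Krt13, the pair of the oral and oesophageal lining, varied little and had low signals in all tumours.

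Krt6a had log2 signals of 10.14, 5.19, 9.81 and 5.20 in NeuNT/H1074R tumours 1 to 4, against 3.40, 5.07, 9.07 and 12.04 in NeuNT tumours 1 to 4. Krt6b stood at 8.80, 5.10, 7.47 and 5.38 in NeuNT/H1074R tumours and at 4.25, 4.60, 8.72 and 12.15 in NeuNT tumours. High values of this pair were thus found in 4 tumours, NeuNT/H1074R 1 and 3 and NeuNT 3 and 4, and low values in 4, and the genotypes overlapped. Krt6a and Krt6b are near-identical copies, and how far their probes read each other's transcript is not known from the files. Krt16 had signals of 9.66, 4.83, 9.85 and 5.03 in NeuNT/H1074R tumours and of 3.91, 4.52, 4.77 and 10.48 in NeuNT tumours. NeuNT replicate 3, which was among the high tumours for Krt6a and Krt6b, was thus among the low tumours for Krt16.

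Krt10 reached 9.26 in NeuNT replicate 4, 4.47-fold above the next tumour, NeuNT/H1074R replicate 3 at 7.10, while NeuNT/H1074R replicate 1 had 6.88 and the remaining 5 tumours 5.28 to 5.84. Krt1 had 7.74 in NeuNT replicate 4 and 5.46 in NeuNT/H1074R replicate 1, with 4.38 to 4.86 in the other 6. Krt4 lay within 4.05 to 4.61 and Krt13 within 4.34 to 5.05 over all 8 tumours, and the mucosal keratins thus lacked the range of the other members. Their means, 4.33 and 4.74, lay under the array medians and not far above the limit for dim genes, 4.06. A stable low level and an absence of signal cannot be told apart for them.

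Among the early secreted and cytoplasmic proteins, Krtdap had the widest spread. It encodes a small secreted protein of differentiating keratinocytes and had signals of 6.31, 4.36, 6.76 and 4.79 in NeuNT/H1074R tumours, against 4.09, 4.64, 4.53 and 11.51 in NeuNT tumours. NeuNT replicate 4 was 27-fold above the next tumour, NeuNT/H1074R replicate 3, while NeuNT/H1074R replicates 2 and 4 lay within 1 log2 unit of NeuNT tumours 1 to 3. Sbsn, which encodes suprabasin of the suprabasal layers, followed the same order of the 3 upper tumours, with 7.30 and 6.79 in NeuNT/H1074R replicates 3 and 1, against 9.17 in NeuNT replicate 4 and 5.28 to 6.38 in the other 5.

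Calml3, a calmodulin-like protein of stratified epithelium, stood at 6.90, 5.47, 6.72 and 5.61 in NeuNT/H1074R tumours and at 5.46, 7.13, 4.73 and 8.64 in NeuNT tumours. Trim29, a gene of basal and squamous epithelium, had 8.97, 6.12, 9.46 and 5.88 in NeuNT/H1074R tumours and 5.76, 9.88, 7.97 and 9.37 in NeuNT tumours. These 2 genes placed NeuNT replicate 2 among the upper tumours, first for Trim29 and second for Calml3, although it was low for most other members.

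Desmosomes hold keratinocytes together, and the 4 desmosomal members were all highest in NeuNT replicate 4. Dsc1, a desmocollin of the upper epidermis, had signals of 5.60, 3.07, 4.12 and 4.19 in NeuNT/H1074R tumours, against 3.30, 4.26, 3.45 and 9.31 in NeuNT tumours. In NeuNT replicate 4 it was 13.1-fold above the next tumour, NeuNT/H1074R replicate 1. The desmoglein Dsg3 stood at 8.28, 6.12, 8.23 and 5.89 in NeuNT/H1074R tumours and at 5.79, 5.29, 7.78 and 10.17 in NeuNT tumours, and here NeuNT/H1074R 1 and 3 and NeuNT 3 lay between NeuNT 4 and the remaining 4 tumours. The desmoglein Dsg1a had 5.56, 4.35, 5.27 and 4.95 in NeuNT/H1074R tumours and 3.87, 3.74, 4.96 and 7.89 in NeuNT tumours. Pkp1, a plakophilin that links desmosomes to keratin, had the smallest spread of the 4, from 7.17 in NeuNT replicate 2 to 9.99 in NeuNT replicate 4.

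The small proline-rich proteins, cross-bridges of the envelope, were all highest in NeuNT replicate 4, with gaps to the next tumour from 1.07 for Sprr3 and 1.59 for Sprr1a to 5.14 for Sprr1b. Sprr1b had signals of 5.83, 4.77, 5.95 and 5.16 in NeuNT/H1074R tumours, against 4.41, 4.29, 4.70 and 11.08 in NeuNT tumours. Sprr2d stood at 4.71, 3.95, 4.89 and 4.62 in NeuNT/H1074R tumours and at 3.47, 3.69, 3.25 and 9.31 in NeuNT tumours. The 7 other tumours ran from 4.29 to 5.95 for Sprr1b and from 3.25 to 4.89 for Sprr2d. NeuNT replicate 4 was 35.2-fold and 21.4-fold above the nearest, NeuNT/H1074R replicate 3. Sprr2b, Sprr2e and Sprr2h were also far higher in NeuNT replicate 4, with 10.59, 9.12 and 8.97 there and at most 6.98, 4.94 and 4.25 elsewhere. The Sprr2 genes are close copies, and their probes may read one another in part.

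Sprr1a did not share this pattern. Its signals were 10.95, 8.82, 9.34 and 6.99 in NeuNT/H1074R tumours, against 4.87, 9.58, 4.65 and 12.54 in NeuNT tumours. Values spread over the whole range, with NeuNT/H1074R 1 nearest to NeuNT 4 and NeuNT/H1074R 2 and 3 and NeuNT 2 in the middle. NeuNT/H1074R 4 lay below these, and NeuNT 1 and 3 were at the bottom. Sprr4 was intermediate, with 5.82 in NeuNT/H1074R replicate 1, 8.21 in NeuNT replicate 4 and 3.46 to 4.62 in the other 6. Sprr3, a mucosal member, remained dim, with 1.88 to 2.71 in 7 tumours and 3.79 in NeuNT replicate 4.

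**Figure D2:**
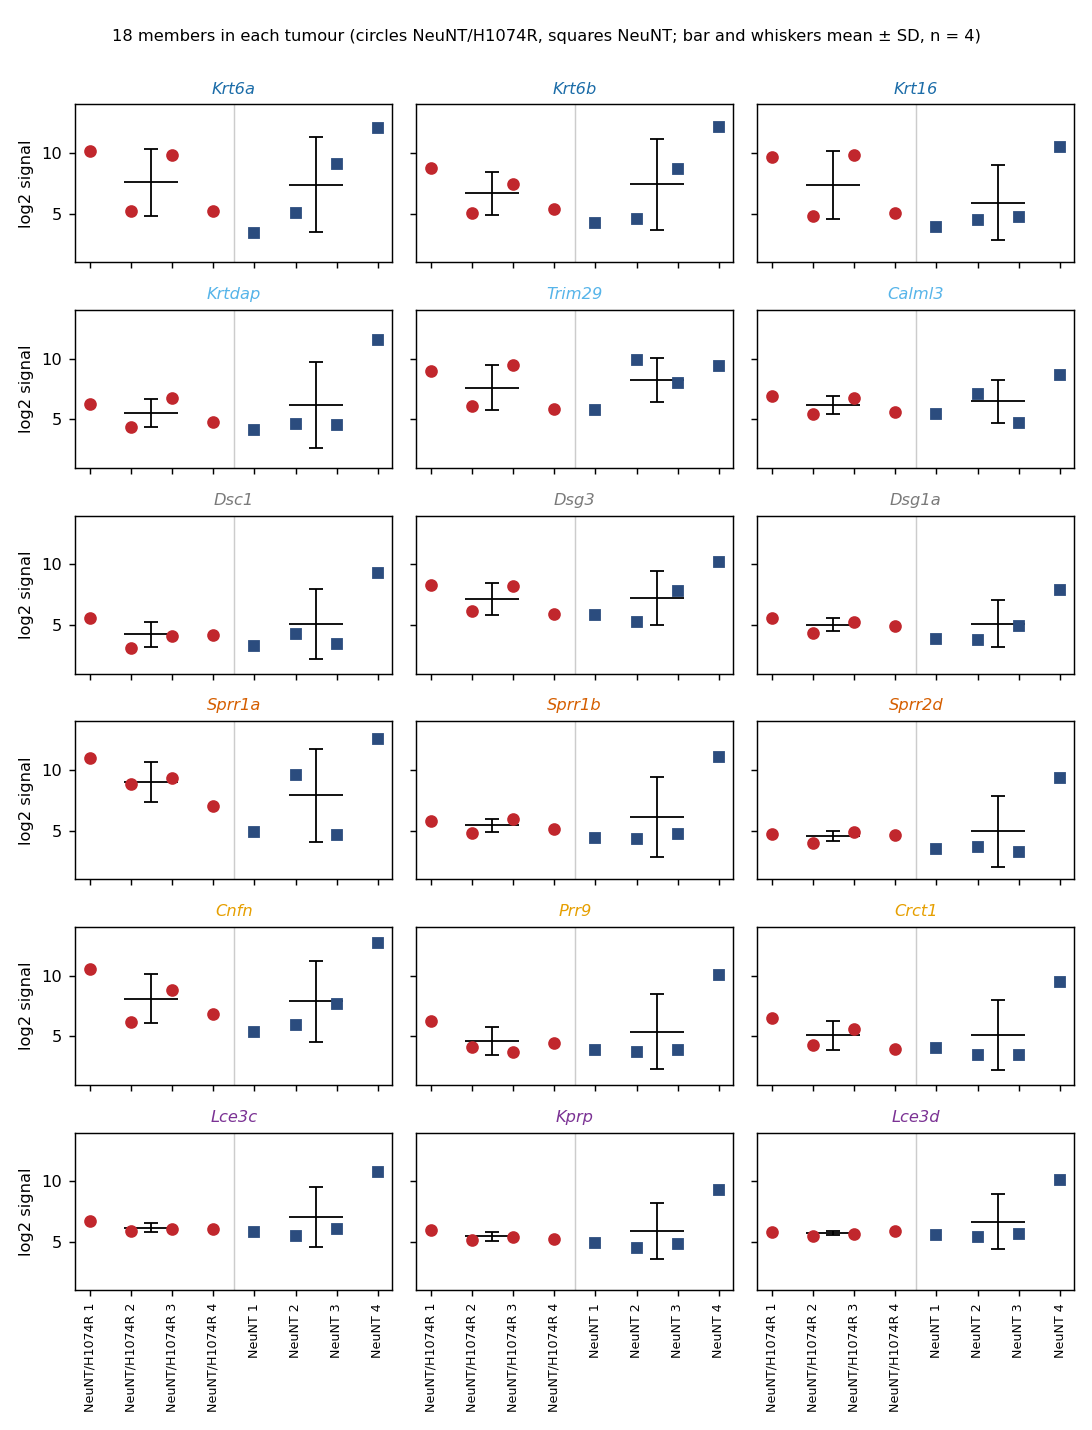
Log2 signals of the 18 members with the widest range, 3 for each role in the order of the rows, in each tumour; circles are NeuNT/H1074R, squares NeuNT, and the bar with whiskers is the mean ± SD of 4 tumours. For Krt16, NeuNT/H1074R 1 and 3 (9.66 and 9.85) lie close to NeuNT 4 (10.48), while for Sprr1b no other tumour passes 5.95 and NeuNT 4 stands at 11.08.

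The sequence before the start is shown for members with the same and with different tumour patterns. The 250 bases before the annotated start were read from RefSeq promoter sequences (GRCm38.p6) for the pair Sprr1a and Sprr1b, for Sprr2d and for the involucrin gene Ivl, as well as for Krtdap and for Lor, which lies in the same complex and varied little. They are written in lower case, 5′ to 3′ on the strand of the gene and ending at the base before the start, with matches to the AP-1 letters TGANTCA and to the TATA box letters TATAAA in capitals.
Sprr1a (chr3:92485882-92486131, minus strand): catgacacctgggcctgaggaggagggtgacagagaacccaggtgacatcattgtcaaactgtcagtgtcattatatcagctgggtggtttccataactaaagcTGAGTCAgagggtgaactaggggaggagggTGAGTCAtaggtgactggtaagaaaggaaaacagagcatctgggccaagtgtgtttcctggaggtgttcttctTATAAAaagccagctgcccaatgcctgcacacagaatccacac
Sprr1b (chr3:92438780-92439029, minus strand): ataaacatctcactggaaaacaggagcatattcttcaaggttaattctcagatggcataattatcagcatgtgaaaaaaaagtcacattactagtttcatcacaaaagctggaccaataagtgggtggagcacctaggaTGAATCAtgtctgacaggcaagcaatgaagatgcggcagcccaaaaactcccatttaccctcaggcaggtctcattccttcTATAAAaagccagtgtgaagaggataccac
Sprr2d (chr3:92338890-92339139, plus strand): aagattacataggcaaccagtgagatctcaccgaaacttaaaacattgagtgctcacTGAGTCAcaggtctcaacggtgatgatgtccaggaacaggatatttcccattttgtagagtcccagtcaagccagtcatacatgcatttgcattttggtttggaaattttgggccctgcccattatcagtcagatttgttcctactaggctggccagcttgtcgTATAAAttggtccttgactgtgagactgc
Ivl (chr3:92573736-92573985, minus strand): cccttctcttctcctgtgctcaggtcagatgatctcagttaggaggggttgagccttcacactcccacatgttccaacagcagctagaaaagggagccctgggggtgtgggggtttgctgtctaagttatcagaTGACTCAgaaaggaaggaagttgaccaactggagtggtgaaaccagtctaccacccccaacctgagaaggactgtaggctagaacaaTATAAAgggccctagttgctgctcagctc
Krtdap (chr7:30787655-30787904, plus strand): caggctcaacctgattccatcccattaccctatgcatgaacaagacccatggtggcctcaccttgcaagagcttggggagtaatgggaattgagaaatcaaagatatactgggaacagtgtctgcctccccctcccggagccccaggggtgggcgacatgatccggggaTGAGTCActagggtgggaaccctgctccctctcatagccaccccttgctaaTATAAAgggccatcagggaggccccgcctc
Lor (chr3:92083143-92083392, minus strand): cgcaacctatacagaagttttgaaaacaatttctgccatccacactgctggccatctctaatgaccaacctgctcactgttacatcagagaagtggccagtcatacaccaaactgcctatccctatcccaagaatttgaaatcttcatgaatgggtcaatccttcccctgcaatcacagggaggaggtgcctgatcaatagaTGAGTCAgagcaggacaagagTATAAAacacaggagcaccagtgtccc

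All 6 windows hold both motifs, and no AP-1 match in them overlaps a TATA match. These 6 were selected for display, so that count says nothing of the members as a set. The windows of Lce3c and Lce3d, both high in NeuNT replicate 4 alone, held neither motif. The same was true of the windows of Cnfn, Lce1b, Lce1h, Sprr4 and Tgm1. The AP-1 letters begin 146 and 116 bases before the start in Sprr1a, 111 in Sprr1b, 193 in Sprr2d, 116 in Ivl, 81 in Krtdap and 48 in Lor, and the TATA letters begin between 27 and 43 bases before it. AP-1 is the factor family of Fos and Jun proteins, which is known to drive several genes of this programme in keratinocytes. Of the 39 members, 25 had at least 1 window in the RefSeq table, 27 windows in all. The AP-1 letters, searched on both strands, occurred in 15 of 27 windows (55.6%), against 6.75% of all 32851 windows, and the TATA letters in 16 of 27 (59.3%), against 12.4%. Windows of 24 starts of non-member genes in the same stretch of the chromosome held the AP-1 letters in 20.8% and the TATA letters in 29.2%.

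By role, the AP-1 letters were found in 2 of 2 windows of early secreted and cytoplasmic genes, 2 of 3 of keratins, 6 of 8 of small proline-rich genes, 3 of 7 of other envelope genes and 2 of 7 of late granular layer genes. Both keratin windows with the letters are starts of Krt13, which varied little, and the window of Krt10 held none. The other keratin members had no window. The Sprr2 windows are not independent: Sprr2d and Sprr2e have 90.0% identical bases, the other pairs among Sprr2b, Sprr2d, Sprr2e and Sprr2h from 68.8% to 70.8%, and Sprr1a and Sprr1b 64.4%. Letters of 4 other factor families were searched too, on both strands. TTNNGCAA for C/EBP was found in 14.8% of member windows against 9.56% of all, CCNCNCCC for KLF in 33.3% against 45.9%, AGGAAG for ETS in 29.6% against 29.5%, and AACCNGTT for grainyhead in 0 of 27 against 1.79%. The AP-1 and TATA letters thus stand before Lor, which stayed near its median, as well as before Sprr1a and Sprr1b, whose tumour patterns differed. A match is a run of letters and not a measured site.

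Other envelope proteins and the enzymes that join them followed NeuNT replicate 4, with some members also high in NeuNT/H1074R replicate 1. Cnfn, which encodes cornifelin, had signals of 10.58, 6.19, 8.81 and 6.82 in NeuNT/H1074R tumours, against 5.31, 5.90, 7.62 and 12.68 in NeuNT tumours. Prr9, a proline-rich gene of the complex, stood at 6.22, 4.13, 3.67 and 4.41 in NeuNT/H1074R tumours and at 3.86, 3.72, 3.90 and 10.06 in NeuNT tumours. Crct1, a cysteine-rich gene of the complex, had 6.50, 4.28, 5.62 and 3.93 in NeuNT/H1074R tumours and 4.07, 3.43, 3.45 and 9.44 in NeuNT tumours. For all 3 genes NeuNT/H1074R replicate 1 was second to NeuNT replicate 4, whereas NeuNT/H1074R replicate 3 came next for Cnfn and Crct1 and was the lowest of all tumours for Prr9.

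Ivl, which encodes involucrin, an early scaffold of the envelope, lay between 4.58 and 5.17 in 7 tumours and at 8.74 in NeuNT replicate 4. Crnn, which encodes cornulin, lay between 3.94 and 4.66 in these 7 and at 6.996 in NeuNT replicate 4. Of the transglutaminase genes, Tgm1, the membrane-bound enzyme of the epidermis, ran from 5.96 to 7.22 in the 7 tumours, and Tgm3 ran from 4.14 to 5.23. Both were highest in NeuNT replicate 4, at 8.97 and 8.68.

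Late granular layer genes were all highest in NeuNT replicate 4. In the other 7 tumours the spread differed by gene, from 4.31 to 5.98 for Lce1h and from 5.41 to 5.89 for Lce3d. Lce3c and Lce3d encode late cornified envelope proteins. Lce3c had signals of 6.73, 5.86, 6.04 and 6.03 in NeuNT/H1074R tumours, against 5.85, 5.48, 6.08 and 10.76 in NeuNT tumours. Lce3d stood at 5.81, 5.51, 5.62 and 5.89 in NeuNT/H1074R tumours and at 5.54, 5.41, 5.62 and 10.10 in NeuNT tumours. NeuNT replicate 4 alone was high for both, 16.3-fold and 18.6-fold above the next tumour. Kprp, a keratinocyte proline-rich protein gene, had 5.98, 5.15, 5.42 and 5.25 in NeuNT/H1074R tumours and 4.88, 4.53, 4.81 and 9.31 in NeuNT tumours.

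Flg, which encodes the keratin-bundling protein filaggrin, reached 7.99 in NeuNT replicate 4, against 4.26 to 5.39 elsewhere. Lor, which encodes loricrin, the main protein of the epidermal envelope, reached only 5.90 there, against 4.54 to 5.23 elsewhere, a gap of 0.67 to the next tumour. Outside NeuNT replicate 4 its signals lay around the array medians, so its small spread is that of a low signal. In the Lce1 family the gap between NeuNT replicate 4 and the next tumour was 2.92 for Lce1b, 2.69 for Lce1f, 0.84 for Lce1h and 1.03 for Lce1m. Lce1m was the only member with a second probe, which lay between 3.001 and 3.66.

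The roles differed in the median by which NeuNT/H1074R replicates 1 and 3 fell short of NeuNT replicate 4, but their ranges overlapped. In these 2 tumours 4 and 4 of 7 early keratins lay at least 1 unit above their median. For early secreted and cytoplasmic genes the counts were 1 and 2 of 4, and for desmosomal genes 2 and 1 of 4. They were 3 and 0 of 8 for small proline-rich and 3 and 2 of 7 for other envelope genes. Late genes had 1 and 0 of 9, and all genes tested 1.47% and 1.5%. Where a tumour lay near a gene's median, the shortfall gives mainly the height of NeuNT replicate 4. Early keratins of NeuNT/H1074R replicate 1 lay a median of −1.89 log2 units from NeuNT replicate 4, and early secreted and cytoplasmic genes −2.06. Desmosomal genes lay at −2.11, small proline-rich genes at −3.90, other envelope genes at −2.94 and late genes at −2.69. In NeuNT/H1074R replicate 3 the medians were −2.16 for early keratins, −1.89 for early secreted and cytoplasmic genes and −2.28 for desmosomal genes. They were −4.55, −3.79 and −3.16 for small proline-rich, other envelope and late genes. The shortfall in NeuNT/H1074R 1 and 3 was small for Krt16, at −0.82 and −0.62, and large for Sprr1b, at −5.25 and −5.14. Within the roles the spread was wide. In NeuNT/H1074R replicate 1 it ran from −3.35 to −0.13 for early keratins and from −4.29 to −0.84 for late genes. Krt4 and Krt13, at −0.13 and −0.27, varied little over all tumours, so their small shortfall does not show a high value in NeuNT/H1074R replicate 1. Krtdap, an early gene, differed by −5.21 and −4.75 in NeuNT/H1074R 1 and 3. These are differences between single tumours and have no replicate check.

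**Figure D3:**
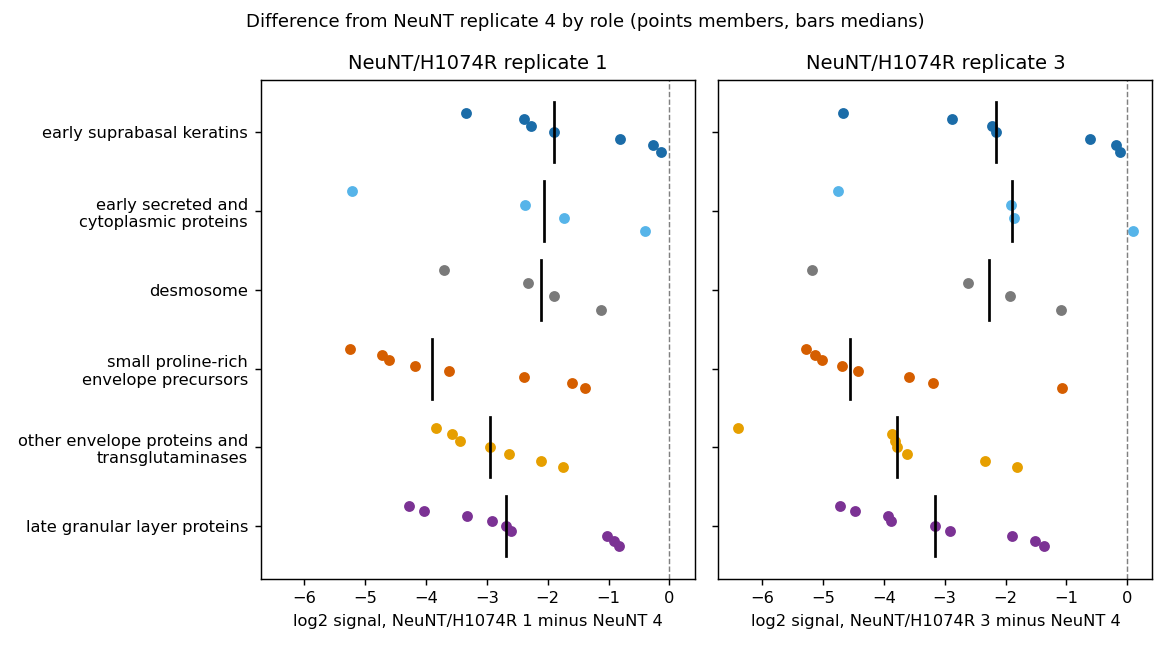
Each point is a member, placed by its log2 signal in NeuNT/H1074R replicate 1 (left panel) or 3 (right panel) minus that in NeuNT replicate 4; vertical bars are the medians of a role and the dashed line marks no difference. Small proline-rich genes have the lowest medians, −3.90 and −4.55, and the medians of early keratins and secreted proteins lie nearest to 0.

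In the mouse RefSeq annotation (GRCm38.p6) 21 of the 39 members lie on chromosome 3, all between Lor and Tchhl1 in the epidermal differentiation complex. The keratins lie in 2 other clusters, 4 on chromosome 15 and 3 on chromosome 11. Between Lor and Tchhl1, 46 genes had a probe, and NeuNT replicate 4 was highest for 41 of them and at least 1 unit above the median for 37. The 25 non-members among these included 17 at least 1 unit above their median in NeuNT replicate 4. The 8 that were not were Lelp1, Sprr2k, Smcp, Lce1a2, Lce1g, Lce1l, Tdpoz8 and Flg2, and only 6 of the 25 passed the filter on dim genes. Of the next 8 genes past Tchhl1, 0 were highest in NeuNT replicate 4, but only 3 of these 8, S100a11 and S100a10 among them, passed the filter on dim genes. On the Lor side, where 6 of 8 genes passed the filter, 5 of 8 were at least 1 unit above their median in NeuNT replicate 4, among them the alarmin genes S100a8 and S100a9.

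**Figure D4:**
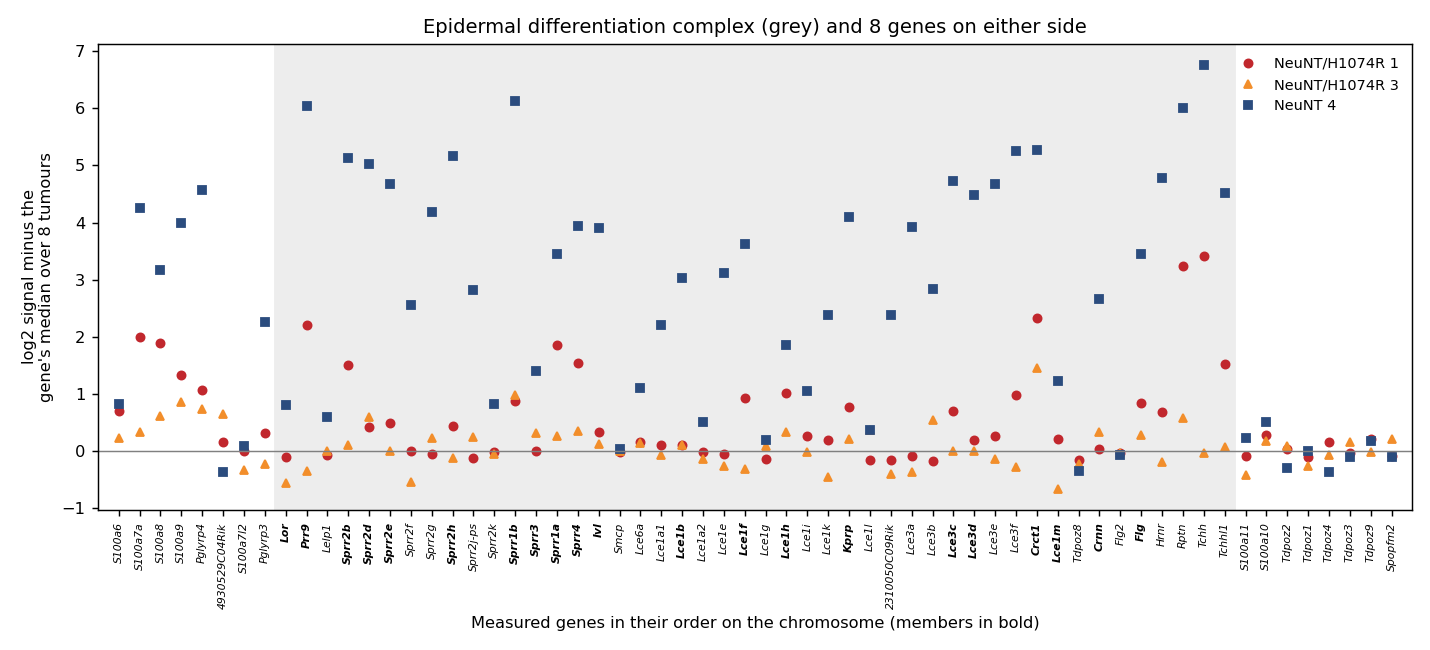
Measured genes are placed in their order on the chromosome, members in bold, with the log2 signal minus the gene's median over 8 tumours for NeuNT/H1074R replicates 1 and 3 and NeuNT replicate 4; grey marks the stretch between Lor and Tchhl1. NeuNT 4 is high along the stretch (median 3.29), while NeuNT/H1074R 1 (median 0.20) is high at single genes such as Rptn, Tchh and Crct1.

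The genotypes were compared to learn what mutant p110α adds to NeuNT, and their values overlapped for every member. Of the 38 members tested, 0 passed the threshold (limma with Benjamini-Hochberg adjustment over 16635 genes, adjusted p from 0.978 to 0.999), and 0% of all genes did. At an unadjusted p under 0.05 there were 0 members, against 3.82% of genes. Genotypes that did not overlap were found for 0 of 39 members, while 2.69% of genes tested had genotypes that did not overlap. Krt6a had a mean of 7.59 ± 2.76 in NeuNT/H1074R and 7.40 ± 3.90 in NeuNT tumours (SD, n = 4 each), a log2 difference of 0.19 ± 2.01 (SE; limma, adjusted p = 0.997). Sprr1a averaged 9.02 ± 1.63 in NeuNT/H1074R and 7.91 ± 3.83 in NeuNT tumours (SD, n = 4 each), a difference of 1.11 ± 1.75 (SE; limma, adjusted p = 0.979).

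The remaining leading members of each role did not pass either. The log2 differences were −0.64 ± 1.57 (SE) for Krtdap, −0.84 ± 1.27 (SE) for Dsc1, 0.22 ± 1.64 (SE) for Cnfn and −0.88 ± 1.06 (SE) for Lce3c. The median 95% interval of a member's difference reached 2.21 log2 units to either side, against 0.395 over all genes tested, so a several-fold difference between genotypes could not have been detected for most members.

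The sign of the mean difference depended on NeuNT replicate 4. With all tumours, 32 members had a lower and 7 a higher mean in NeuNT/H1074R (lower for 50.5% of genes tested), with a median difference of −0.42 over the 39 members and of −0.0027 over all genes tested. Without NeuNT replicate 4, 33 members had a higher and 6 a lower mean in NeuNT/H1074R (higher for 49.1% of genes tested), and the median was 0.46, against −0.0051 over all genes. Again 0 members passed (limma, smallest adjusted p = 0.955), as did 0% of genes, and 6 members had an unadjusted p under 0.05, against 4.5% of genes. The tumour left out is the one that most members were chosen for, so that count depends on the choice and nothing is read from it. The 6 were Sprr1b, Sprr2d, Crct1, Crnn, Kprp and Lce1h.

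**Figure D5:**
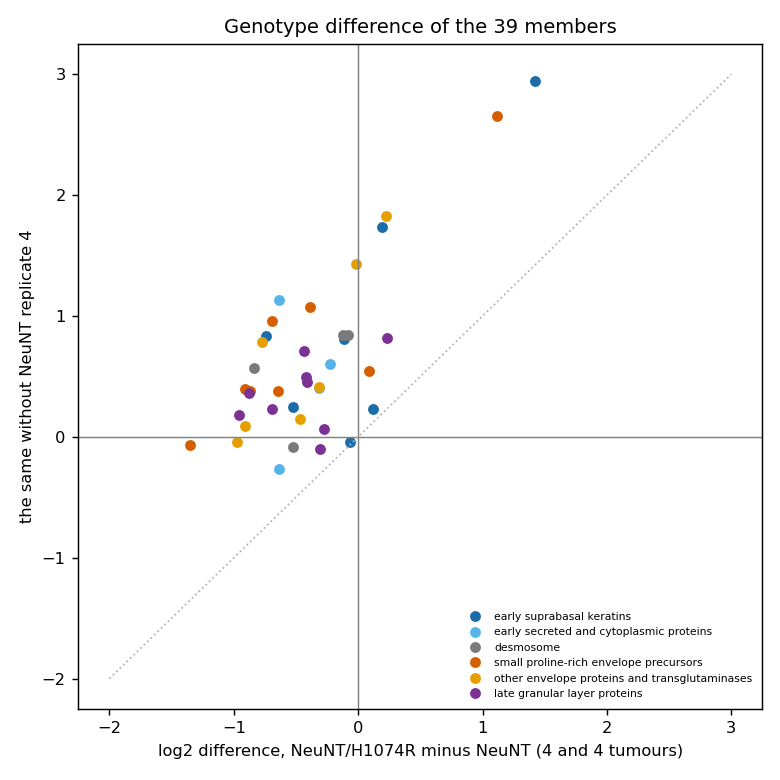
Each point is a member, with its log2 difference NeuNT/H1074R minus NeuNT over 4 and 4 tumours on the x axis and the same without NeuNT replicate 4 on the y axis; the dotted line marks equal values. The points lie above the line, with a median of −0.42 on the x axis and 0.46 on the y axis.

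Further genes of the programme that are not members were listed by what is known of them. Of 81 genes in 4 lists, 71 were measured and 52 tested, and 0 passed (limma). Of these 52, 1 gene, with overlapping genotypes, had an unadjusted p under 0.05 (limma), against 3.82% of all genes tested. That gene was Ppl, which encodes the envelope scaffold periplakin, at 7.72, 7.56, 7.38 and 7.43 in NeuNT/H1074R tumours and 7.70, 7.96, 8.14 and 8.90 in NeuNT tumours (log2 difference −0.65 ± 0.25 SE; limma, adjusted p = 0.978). Other genes of the complex had a mean lower in NeuNT/H1074R for 7 of 7 tested, other cornification genes for 15 of 18, lipid barrier genes for 9 of 10 and transcription factors for 9 of 17, against 50.5% of all genes tested. These counts rest on NeuNT replicate 4: without it, the mean was lower in NeuNT/H1074R for 1 of 7, 6 of 18, 3 of 10 and 5 of 17 genes of the 4 lists in the same order.

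Of 20 other cornification genes, 17 were highest in NeuNT replicate 4, among them Asprv1, a protease that processes filaggrin, and Cdsn, which encodes corneodesmosin. Asprv1 had 10.29, 5.68, 9.72 and 5.67 in NeuNT/H1074R tumours and 6.16, 6.11, 8.25 and 11.76 in NeuNT tumours, and thus was also high in NeuNT/H1074R 1 and 3 and NeuNT 3. Cdsn had 6.78, 4.45, 7.83 and 4.86 in NeuNT/H1074R tumours and 5.01, 5.20, 5.29 and 10.60 in NeuNT tumours. Of 11 measured genes of the epidermal lipid barrier, 8 were highest in NeuNT replicate 4, including the fatty acid elongase gene Elovl4, with 7.11, 4.92, 7.44 and 4.76 in NeuNT/H1074R and 5.18, 6.46, 5.91 and 9.73 in NeuNT tumours. Cyp4f39, a fatty acid hydroxylase gene, reached 9.07 in NeuNT replicate 4, against at most 6.10 elsewhere. Among the other genes of the complex, Rptn and Tchh were second highest in NeuNT/H1074R replicate 1, at 7.14 and 7.43, against 9.90 and 10.76 in NeuNT replicate 4.

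Of 18 transcription factors known from squamous differentiation that were measured, 8 were highest in NeuNT replicate 4 and 5 lay at least 1 unit above their median in it. Grhl3, a grainyhead factor of the epidermal barrier, had 6.83, 5.23, 7.43 and 4.33 in NeuNT/H1074R tumours and 5.003, 5.40, 6.50 and 8.31 in NeuNT tumours, with the high values in the tumours that were also high for Krt6a. Trp63, the regulator of stratified and basal epithelium, had 7.64, 6.11, 7.65 and 5.59 in NeuNT/H1074R tumours and 5.55, 8.44, 4.87 and 8.44 in NeuNT tumours. NeuNT replicate 2 equalled NeuNT replicate 4 in Trp63, although most members were low in it.

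Marker lists of other cell types were examined in the same tumours. Basal keratinocyte genes, 9 of 10 measured, had a mean level of 9.06 and 9.02 in NeuNT/H1074R replicates 1 and 3, 8.95 in NeuNT replicate 4 and 8.49 in NeuNT replicate 2, and 6.73 to 6.89 in the remaining 4. Krt14 had 12.49, 6.71, 11.73 and 7.14 in NeuNT/H1074R tumours and 5.36, 9.37, 7.99 and 12.04 in NeuNT tumours, and Krt17 had 12.45, 6.12, 12.19 and 6.81 in NeuNT/H1074R and 6.55, 7.39, 5.06 and 10.77 in NeuNT tumours. Both keratins were thus high in NeuNT/H1074R 1 and 3 and in NeuNT 4, and intermediate values of Krt14 were seen in NeuNT 2 and 3. The list means rest on part of the genes. At least 1 unit above their median were 4 of 9 in NeuNT/H1074R 1, 3 in NeuNT/H1074R 3, 3 in NeuNT 2 and 4 in NeuNT 4. The shares of all genes tested were 1.47%, 1.5%, 3.79% and 3.07%. Dst had 6.80, 6.67 and 6.75 in NeuNT/H1074R 1 and 3 and NeuNT 4, lower than in the remaining tumours, and Itga6 stayed within 9.55 to 10.45.

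Hair shaft and root sheath genes, 18 of 19 measured, had a mean level of 4.64 to 5.59 in NeuNT/H1074R and 4.53 to 8.09 in NeuNT tumours, and 16 were highest in NeuNT replicate 4. Krt71 of the inner root sheath had 9.76 there and at most 5.77 elsewhere. Tchh and Dsc3 stand in this list and in the lists above. Sebaceous genes, 9 of 10 measured, had means of 5.91 to 6.29 in NeuNT/H1074R and 5.96 to 6.29 in NeuNT tumours, and 2 of 9 were highest in NeuNT replicate 4. Cidea had 6.68, 6.35, 6.69 and 6.44 in NeuNT/H1074R and 7.94, 5.47, 6.01 and 8.31 in NeuNT tumours, and Dgat2 had 5.54 to 7.64 in NeuNT/H1074R and 5.49 to 7.78 in NeuNT tumours. Melanocyte genes, 10 of 10 measured, had means of 5.25 to 5.49 and 5.09 to 5.51 in NeuNT/H1074R and NeuNT tumours, and 4 of 10 were highest in NeuNT replicate 4. Gpnmb, which macrophages also express, had 9.65, 6.79, 6.92 and 7.45 in NeuNT/H1074R and 7.21, 6.70, 7.30 and 9.92 in NeuNT tumours, so it was high in NeuNT/H1074R 1 and NeuNT 4. Sox10 had 9.44 to 10.40 in NeuNT/H1074R and 9.20 to 10.36 in NeuNT tumours. The part of skin, hair follicle or pigment cell RNA in the member values was not tested.

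Neutrophil genes, 10 of 10 measured, were highest in NeuNT replicate 4 for 7, with mean levels of 5.01 to 6.31 in NeuNT/H1074R and 4.52 to 7.04 in NeuNT tumours. S100a8, which keratinocytes also make, had 9.64, 6.78, 8.37 and 7.13 in NeuNT/H1074R and 5.97, 4.51, 9.96 and 10.91 in NeuNT tumours, and S100a9 had 4.02 to 6.71 in NeuNT/H1074R and 4.13 to 9.37 in NeuNT tumours. T and NK cell genes, 9 of 10 measured, had means of 4.71 to 5.61 in NeuNT/H1074R and 4.90 to 6.25 in NeuNT tumours, with NeuNT replicate 4 highest for 6. Cd3e had 5.91 to 7.05 in NeuNT/H1074R and 5.997 to 8.57 in NeuNT tumours, and Cd3g had 4.45 to 6.57 in NeuNT/H1074R and 4.23 to 7.43 in NeuNT tumours. The part of immune cells in the values of NeuNT replicate 4 was not tested. Skeletal muscle genes, 10 of 10 measured, had their highest mean levels in NeuNT/H1074R replicates 1 and 3, at 7.12 and 6.63, against 4.80 to 5.37 in the other 6 tumours. Of these genes 7 were highest in NeuNT/H1074R replicate 1, 2 in NeuNT/H1074R replicate 3 and 1 in NeuNT replicate 2. Acta1 had 10.01 and 10.23 in NeuNT/H1074R replicates 1 and 3, and Myh4 had 7.68 and 5.16. The same 2 tumours held the intermediate squamous values, and the part of muscle or of tissue around the tumour in those values was not tested.

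Myoepithelial genes, 8 of 8 measured, were all highest in NeuNT replicate 2, with a mean of 9.93, against 6.66 to 7.79 in the other 7 tumours. Cnn1 had 11.53 in NeuNT replicate 2 and at most 8.42 elsewhere, and Myh11 had 10.79 and at most 7.63. This is the tumour that stood high for Trim29 and second for Calml3, and also the one with high Foxa1, at 11.74, and the part of myoepithelial cells in these values was not tested. Mean levels in NeuNT/H1074R and NeuNT tumours were 5.15 to 6.06 and 5.68 to 7.08 for adipocyte genes (9 of 10 measured), and 7.94 to 8.78 and 8.11 to 9.48 for fibroblast genes (10 of 10). They were 7.73 to 8.92 and 8.53 to 8.99 for macrophage genes (9 of 10), and 6.55 to 6.76 and 6.37 to 7.23 for endothelial genes (10 of 10). In these 4 lists 0 genes were highest in NeuNT replicate 4. Their genes of widest range were Cidec and Fabp4, with 4.75 to 6.72 and 7.12 to 8.49 in NeuNT/H1074R against 5.75 to 8.33 and 7.83 to 9.80 in NeuNT tumours, and Dpt and Dcn, with 5.21 to 8.23 and 8.29 to 9.66 in NeuNT/H1074R against 7.18 to 9.22 and 9.30 to 11.88 in NeuNT tumours. Lyz2 and Folr2 had 9.33 to 11.51 and 6.73 to 8.57 in NeuNT/H1074R against 10.23 to 11.35 and 7.60 to 8.59 in NeuNT tumours, and Vwf and Tek 5.24 to 5.97 and 4.97 to 5.79 in NeuNT/H1074R against 5.17 to 6.45 and 5.07 to 6.19 in NeuNT tumours. Across all 13 cell type lists 0 genes passed between genotypes (limma), with 6 of 9 tested muscle genes, 1 of 9 adipocyte, 1 of 10 fibroblast and 1 of 8 neutrophil genes at an unadjusted p under 0.05, against 3.82% of all genes tested.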

How the data were processed

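The authors deposited 1 table of log2 signals for 8 tumours and 41345 probes. Affymetrix Expression Console and Transcriptome Analysis Console are the tools named, per the submitters' processing notes; the sources used here give no background correction, normalization or version. The log2 scale was inferred from the values (0.887 to 13.6). Values were used as deposited, since array medians lay within 4.81 to 4.87. Arrays carry no read depth, and their number limits the precision.

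Probes were named from the platform annotation: 23521 had 1 symbol, 1814 had several and were left out, and 16010 were not listed and stay unnamed here. Each of 22180 genes was read from its probe of highest mean, and the lowest 25% of genes by mean (5545 genes) were left out of tests. Genotypes, taken from the labels, were compared as NeuNT/H1074R minus NeuNT with limma 3.58.1 in R 4.3.3 (eBayes with intensity trend, two-sided, Benjamini-Hochberg over 16635 genes, threshold 0.05). The fit was tested on simulated data. Members, roles and lists were chosen with earlier results of these data known. Values are given for the 3 members of widest range per role and, in full, in part or as ranges, for the 2 genes of widest range per list; Krt10, Krt1 and others given in part serve to account for every member. Promoter windows and gene order come from RefSeq (GRCm38.p6); the sources used here do not give the build of the array design. Alternatives left out each tumour, rescaled the arrays, changed the filter, the probe rule or the variance model, or weighted arrays. Figures were drawn with matplotlib 3.10.9.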

Additional observations from a re-analysis of the deposited data

Results flagged for a closer look

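A tumour is listed here where its gap to the nearest of the other 3 tumours of its genotype took up nearly the whole range, beyond the critical value of Dixon's test for 4 values, which chance does in about 1 of 20 groups. Among the 39 members, NeuNT replicate 4 stood apart upwards from the other NeuNT tumours for 23; 22 of these are among the 38 tested members, and 1.23% of all genes tested met the same criterion. The members were chosen on such values, and Dsc1, Sprr2h and Lce1f passed the filter on dim genes only through this tumour, so nothing is read from that count. Of the keratins these were Krt1 at 7.74, Krt10 at 9.26 and Krt16 at 10.48, against 3.91 to 5.84 in the other NeuNT tumours. Of the early secreted genes it was Krtdap at 11.51, against 4.09 to 4.64 in the other NeuNT tumours. Of the desmosomal genes it was Dsc1 at 9.31, against 3.30 to 4.26 in the other NeuNT tumours. The small proline-rich genes were Sprr1b at 11.08, Sprr2b at 10.59, Sprr2d at 9.31, Sprr2e at 9.12, Sprr2h at 8.97, Sprr3 at 3.79 and Sprr4 at 8.21, against 1.88 to 5.70 in the other NeuNT tumours. Other envelope genes were Ivl at 8.74, Crct1 at 9.44, Crnn at 6.996, Prr9 at 10.06 and Tgm3 at 8.68, against 3.43 to 4.97 in the other NeuNT tumours. Late genes were Flg at 7.99, Kprp at 9.31, Lce1f at 7.57, Lce1m at 7.31, Lce3c at 10.76 and Lce3d at 10.10, against 3.71 to 6.08 in the other NeuNT tumours.

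Within NeuNT/H1074R tumours 4 members had such a value. The share over all genes tested was not computed for this genotype, so nothing is read from that count. Sprr3 lay under the limit for dim genes, 4.06, and the low values of Krt4, Tgm3 and Lce1b lay near it. Krt4 was low in NeuNT/H1074R replicate 4 at 4.08, against 4.47 to 4.53 in the other tumours of that genotype. Sprr3 was high in NeuNT/H1074R replicate 3 at 2.71, against 2.38 to 2.44 in the other tumours of that genotype. Tgm3 was low in NeuNT/H1074R replicate 2 at 4.14, against 5.06 to 5.23 in the other tumours of that genotype. Lce1b was low in NeuNT/H1074R replicate 4 at 4.09, against 4.44 to 4.49 in the other tumours of that genotype.

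Of the other genes, 43 were examined: the 2 of widest range in each list and the 10 with the profile most like that of the members. NeuNT replicate 4 stood apart for 12 of these 43. The last 10 of the 12 were picked for a profile that is high in this tumour, which fixes their result; other genes of the lists were not examined in this way. The 12 were Rptn at 9.90, Cdsn at 10.60, Abca12 at 7.97, Krt90 at 9.65, Psors1c2 at 7.77 and Casp14 at 7.82. Next came Teddm3 at 9.02, Il1f6 at 7.75, Il1f5 at 7.64, Calm4 at 9.32, Krt72 at 7.23 and Tmprss11b at 8.19. Tchh was high in NeuNT/H1074R replicate 1 at 7.43, against 3.62 to 4.03 in the other tumours of that genotype. Myh11 was high in NeuNT/H1074R replicate 3 at 7.63, against 6.28 to 6.50 in the other tumours of that genotype. Myh11 was high in NeuNT replicate 2 at 10.79, against 6.003 to 6.80 in the other tumours of that genotype. Acta1 was high in NeuNT replicate 2 at 8.61, against 6.09 to 6.52 in the other tumours of that genotype. Il1f6 was high in NeuNT/H1074R replicate 1 at 4.76, against 4.06 to 4.12 in the other tumours of that genotype. The cause of these differences between tumours was not tested.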

How the results depend on the processing

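No paired analysis was possible because the labels give the tumours of the genotypes no shared numbers. The count of members past the threshold stayed 0 under all 15 alternatives, and so did that of the pathway genes. Of the members, 37 were highest in NeuNT replicate 4 under the rescaled arrays and with all probes averaged, and 36 of the 38 that pass the filter were. When single tumours were left out, the count of members highest in 1 tumour ran from 23 to 37, the lowest without NeuNT replicate 4, when that tumour was NeuNT/H1074R replicate 1. The median log2 difference over the members ran from −0.76 to 0.46 when single tumours were left out and was positive only without NeuNT replicate 4; it was −0.45 with quantile normalization, −0.44 with centred arrays and −0.43 over the members that pass the filter. Leaving out single tumours moved the differences of Krt6a from −1.14 to 1.74, of Krtdap from −1.34 to 1.13, of Dsc1 from −1.43 to 0.57, of Cnfn from −0.63 to 1.82 and of Lce3c from −1.40 to 0.36, so all 5 changed sign, while Sprr1a kept its sign at 0.027 to 2.66. With array weights Krt6a stood at −0.61 and Cnfn at −0.39, of opposite sign to their reported values; the cause was not tested. None of these differences passed the test in any alternative.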

Other observations

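The 10 tested genes outside the list whose values, centred on their own mean, lay closest to the median profile of the members had mean absolute differences of 0.179 to 0.241 log2 units over the 8 tumours. In order they were Abca12, Krt90, Psors1c2, Casp14, Teddm3, Il1f6, Il1f5, Calm4, Krt72 and Tmprss11b. Several are known from the epidermis: Abca12 carries lipids into lamellar granules, Casp14 takes part in the processing of filaggrin, and Krt72 is a root sheath keratin, and these 3 stand in the lists described above. Il1f6 and Il1f5 encode an agonist and the receptor antagonist of the interleukin-36 family.

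Abca12, the closest, had signals of 5.34, 4.46, 5.45 and 4.69 in NeuNT/H1074R tumours and of 4.14, 4.25, 4.39 and 7.97 in NeuNT tumours. Il1f5 stood at 5.43, 3.95, 4.36 and 4.01 in NeuNT/H1074R tumours and at 3.61, 3.85, 3.76 and 7.64 in NeuNT tumours. Both were highest in NeuNT replicate 4, which follows from their choice by likeness to the members. NeuNT/H1074R replicate 1 was second for Il1f5, and NeuNT/H1074R replicate 3 for Abca12.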
